A study of Mus musculus with 14 samples.

Results

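The 38 genes described here code for the DNA damage checkpoint and for the repair of DNA. They were taken by symbol from a list that was chosen with earlier results of these data known. All 38 were among the 16417 genes shared by the count tables of both oocyte stages. Clpx, the gene deleted in this series, codes for the substrate-unfolding subunit of a protease of the mitochondrial matrix. RNA was measured with SMART-Seq2, a method that amplifies full-length cDNA from very little RNA, in 14 libraries of mouse oocytes. Ovulated CKO (3 libraries) and GV CKO oocytes (4 libraries) came from mice with both Clpx alleles floxed that carried Zp3-Cre, whose zona pellucida promoter drives the recombinase in growing oocytes. Ovulated WT (3 libraries) and GV WT oocytes (4 libraries) had floxed Clpx and no Cre, so that WT here is a floxed control. GV oocytes are still arrested in meiosis with an intact nucleus, the germinal vesicle, and ovulated oocytes have left the follicle. The labels call the samples single-cell but give neither the age of the mice nor the number of oocytes or animals per library. The titles of the ovulated WT samples read Clpxfl/f, while their genotype label reads Clpxfl/fl. Whether a library is a single oocyte changes what the spread between libraries stands for. They do not say that replicates came from separate animals, so p-values measure the spread between these libraries, which may be technical.

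Damaged DNA is sensed by kinase pathways that stop the cell cycle through CHK1, CHK2 and p53, and it is repaired by routes that differ in the lesion they act on. Double-strand breaks are joined directly by Ku and ligase IV or copied from an intact duplex by homologous recombination with the MRN and BRCA proteins, crosslinks need the Fanconi anaemia proteins, and damaged or mispaired bases are cut out by excision repair. Oocytes are known for a checkpoint in which CHK2 activates the p63 protein, and a fully grown oocyte makes almost no new mRNA, so that its repair proteins come from stored transcripts that are translated or degraded during meiotic maturation.

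Clpx served as the check of the labels. It had 0.465, 0.575 and 0.269 CPM in ovulated CKO, 19.1, 18.5 and 17.0 CPM in ovulated WT, 0.676, 0.940, 1.36 and 1.44 CPM in GV CKO and 58.1, 39.6, 40.0 and 39.6 CPM in GV WT oocytes. All CKO libraries lay below all WT libraries of their stage, with a log2 fold change of -5.39 in ovulated and -5.33 in GV oocytes (edgeR adjusted p = 0.00123 and 6.48e-06). CPM is a gene's count relative to the library total, after TMM scaling of the 14 libraries together. Library totals were between 25086506 and 28471453 counts. Gdf9 led the 10 oocyte markers, whose summed level was 7959 to 12215 CPM in ovulated libraries and 27341 to 63301 CPM in GV libraries. The 11 granulosa and cumulus markers listed in both tables summed to 51.2 to 117 CPM in ovulated and 40.5 to 67.9 CPM in GV libraries, led by Cyp19a1, with Lhcgr, Cd44 and Hsd17b1 at 0 in every ovulated CKO library. Of the theca, stromal, endothelial and blood markers, 8 were listed in both tables, summed to 52.3 to 116 CPM in ovulated and 21.0 to 45.5 CPM in GV libraries and were led by Pecam1. Cd44 was at 0 in every GV WT library, Col1a1 and Adgre1 in every ovulated WT library, and Cdh5 and Adgre1 in every GV CKO library. The part of other cells in the results was not tested. Leaving out library 3 of ovulated CKO oocytes changed the number of all genes called between ovulated genotypes to 201, against 1 with it, so member calls that change without it are given in both forms.

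Most of the 38 genes were called between stages, and so were most of all genes tested. In CKO oocytes 15 members were higher and 8 were lower in ovulated than in GV oocytes (edgeR adjusted p under 0.05), which is 23 of 38, where 55.7% of the 13158 genes tested were called, 25.8% higher and 29.9% lower. In WT oocytes 17 were higher and 10 were lower, 27 of 38, where 63.7% of all genes tested were called, 29.7% higher and 34% lower. Every member passed the filter on low counts. The median log2 fold change of the members was 0.29 in CKO and 0.37 in WT oocytes, and that of all genes was -0.14 in CKO and -0.08 in WT oocytes. Both comparisons called 22 members, 14 higher and 8 lower in each, which is 95.7% of the members called in CKO and 81.5% of those called in WT oocytes. Over all 13158 genes tested, 6535 were called in the same direction in both, which is 89.1% of those called in CKO and 78.0% of those called in WT oocytes. These comparisons share no library. With scaling to total counts the median of all genes moved by 0.59 in CKO and 0.34 in WT oocytes, and the split became 20 higher and 5 lower in CKO and 17 higher and 6 lower in WT oocytes. Of all genes, 35.6% were then called higher and 17.2% lower in CKO, and 34% higher and 26.7% lower in WT oocytes. Levels are shares of a library's mRNA, and the RNA content per oocyte was not measured. SMART-Seq2 primes on the poly(A) tail, so shorter tails and fewer mRNA molecules cannot be told apart. Fewer cells of a type and less RNA per cell cannot be told apart either.

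**Figure D1:**
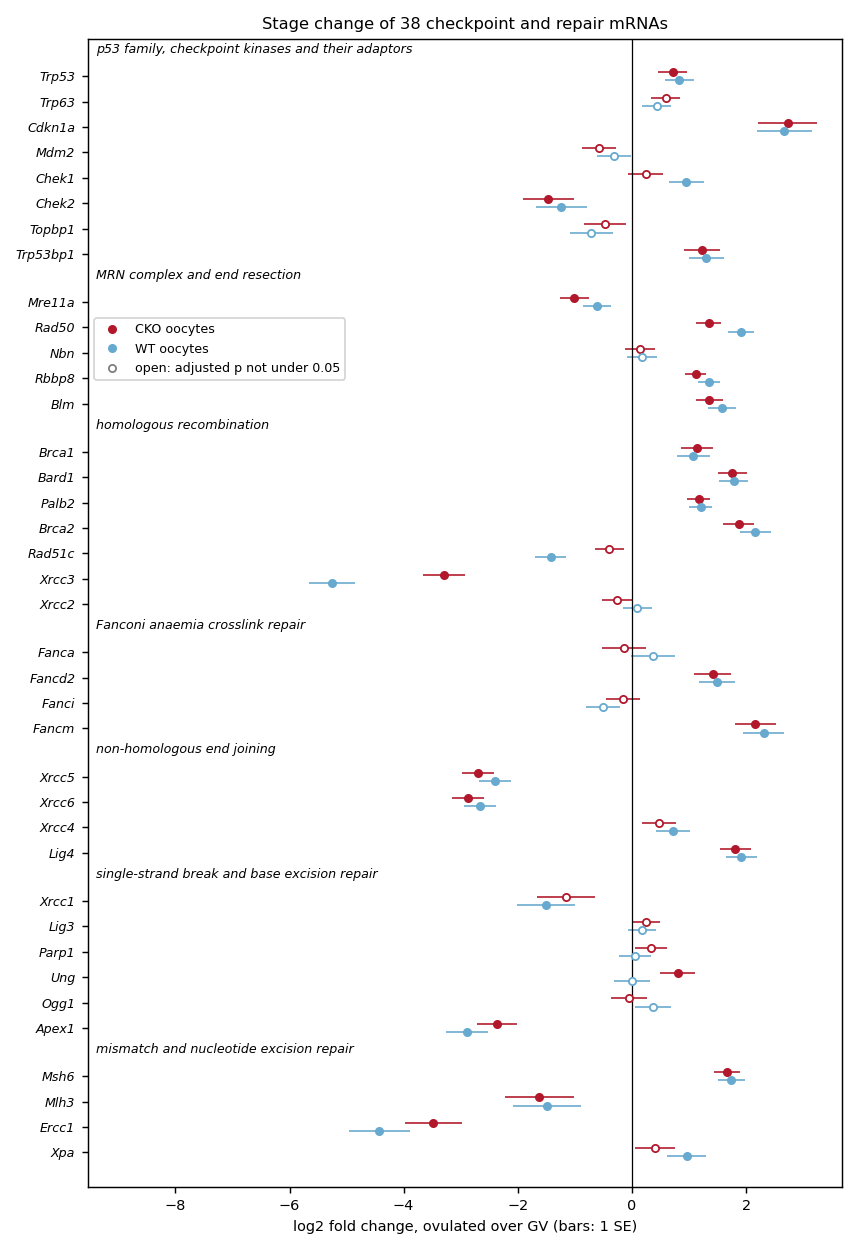
Log2 fold change of the 38 members between ovulated and GV oocytes (x axis, bars of 1 SE), grouped by role, with CKO above WT for each gene; filled points passed an edgeR adjusted p of 0.05. Xrcc3 and Ercc1 lay farthest to the left in both genotypes, and Cdkn1a lay farthest to the right.

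Among the checkpoint genes, Cdkn1a, the p53 and p63 target that codes for the cyclin-dependent kinase inhibitor p21, had the largest increase. It had 1.43, 1.01 and 3.03 CPM in ovulated CKO, 4.36, 2.33 and 4.16 CPM in ovulated WT, 0.338, 0.148, 0.404 and 0.166 CPM in GV CKO and 0.822, 0.511, 0.461 and 0.452 CPM in GV WT oocytes. The ovulated libraries lay above all GV libraries of their genotype, and the GV values stood for only 3 to 25 counts. The log2 fold change was 2.73 in CKO and 2.67 in WT oocytes (edgeR adjusted p = 0.000341 and 0.000176). Trp53, the gene for p53, rose with a log2 fold change of 0.71 in CKO and 0.83 in WT oocytes, and Trp53bp1, whose product steers breaks towards end joining, rose by 1.23 in CKO and 1.30 in WT oocytes. Without library 3 of ovulated CKO oocytes the change of Trp53 in CKO oocytes was 0.41 (edgeR adjusted p = 0.19) and was not called. Chek2, the kinase upstream of p63, fell with a log2 fold change of -1.46 in CKO and -1.24 in WT oocytes, a call that ended with scaling to total counts in both genotypes (-0.85 in CKO and -0.96 in WT oocytes). In WT oocytes it ended in 4 of 15 alternatives.

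Chek1, the kinase that holds back CDK1, was the most abundant member. Its FPKM, which takes transcript length into account, was 328, 271 and 392 FPKM in ovulated CKO, 434, 309 and 509 FPKM in ovulated WT, 146, 210.3, 218 and 168 FPKM in GV CKO and 159, 169.9, 181 and 174 FPKM in GV WT oocytes. All ovulated libraries lay above all GV libraries on this scale, whose values scale with the library total without TMM, and 97.8% of the shared genes had a mean FPKM at or below its mean of 262. After TMM scaling it had 834, 631 and 1102 CPM in ovulated CKO, 1327, 722 and 1405 CPM in ovulated WT, 519, 918, 657 and 807 CPM in GV CKO and 469, 642, 507 and 762 CPM in GV WT oocytes, and here the stages overlapped in both genotypes. Its stage change was called in WT oocytes only (log2 fold change 0.95, edgeR adjusted p = 0.0121), with 0.24 in CKO oocytes (adjusted p = 0.522), and without library 3 of ovulated WT oocytes it was 0.78 in WT oocytes (edgeR adjusted p = 0.0567). The difference between these changes was -0.71 (edgeR adjusted p = 0.672), so a difference between genotypes was not shown. The changes of Trp63, which codes for p63, Mdm2, the ubiquitin ligase of p53, and Topbp1, an activator of the ATR kinase, were not called in either genotype. Their log2 changes were 0.59 in CKO and 0.44 in WT oocytes for Trp63, -0.57 in CKO and -0.31 in WT oocytes for Mdm2, and -0.47 in CKO and -0.71 in WT oocytes for Topbp1.

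In the MRN complex, which binds and trims broken ends, the subunits did not change together. Rad50, the ATPase of the complex and the member of its group with the highest FPKM, had 169, 192 and 214 CPM in ovulated CKO, 309.9, 234 and 240.4 CPM in ovulated WT, 96.9, 83.0, 59.1 and 63.1 CPM in GV CKO and 68.4, 73.5, 70.9 and 65.2 CPM in GV WT oocytes. Every ovulated library held more than every GV library, and the log2 fold change was 1.34 in CKO and 1.91 in WT oocytes (edgeR adjusted p = 0.000112 and 3.68e-06). Mre11a, the nuclease, had 8.77, 9.78 and 11.1 CPM in ovulated CKO, 11.0, 17.5 and 13.7 CPM in ovulated WT, 19.8, 19.0, 17.7 and 23.2 CPM in GV CKO and 19.5, 24.8, 17.0 and 24.6 CPM in GV WT oocytes. The stages did not overlap in CKO oocytes and overlapped in WT oocytes. It fell with a log2 fold change of -1.01 in CKO and -0.61 in WT oocytes (edgeR adjusted p = 0.00273 and 0.0392). The call in WT oocytes ended in 11 of 15 alternatives, and the call in CKO oocytes ended with scaling to total counts (-0.40). Nbn, the subunit that recruits the ATM kinase, had log2 changes of 0.14 in CKO and 0.18 in WT oocytes, which were not called. Per length, Rad50 averaged 48.3 ± 5.10 FPKM in ovulated CKO (SD, n = 3), 62.0 ± 4.99 FPKM in ovulated WT (SD, n = 3), 12.7 ± 3.75 FPKM in GV CKO (SD, n = 4) and 13.3 ± 2.92 FPKM in GV WT oocytes (SD, n = 4), while Mre11a averaged 2.22 ± 0.230 FPKM in ovulated CKO (SD, n = 3), 3.07 ± 1.14 FPKM in ovulated WT (SD, n = 3), 2.95 ± 0.393 FPKM in GV CKO (SD, n = 4) and 3.56 ± 0.263 FPKM in GV WT oocytes (SD, n = 4).

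Rbbp8, whose product CtIP starts end resection with MRN, and Blm, the helicase that works in long-range resection, both rose. Rbbp8 had a log2 fold change of 1.12 in CKO and 1.35 in WT oocytes, and Blm had 1.35 in CKO and 1.58 in WT oocytes. The CPM of both genes was higher in every ovulated library than in every GV library.

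Of the 7 genes of homologous recombination, 4 rose in both genotypes, and these were the genes of the BRCA complexes. Brca2, whose product acts on resected single-stranded DNA, had 419, 392 and 429 CPM in ovulated CKO, 554, 422 and 351 CPM in ovulated WT, 142, 141, 104 and 65.7 CPM in GV CKO and 90.9, 108, 113 and 84.0 CPM in GV WT oocytes. No ovulated library overlapped the GV libraries, and the log2 fold change was 1.87 in CKO and 2.16 in WT oocytes (edgeR adjusted p = 4.06e-05 and 6.92e-06). Bard1, the partner of BRCA1 in a ubiquitin ligase, rose by 1.76 in CKO and 1.78 in WT oocytes on the log2 scale, Palb2, the bridge between BRCA1 and BRCA2, rose by 1.17 in CKO and 1.20 in WT oocytes, and Brca1 itself by 1.14 in CKO and 1.08 in WT oocytes. Palb2 had the highest FPKM of this group, with 49.9, 66.7 and 60.2 FPKM in ovulated CKO, 51.5, 59.6 and 40.4 FPKM in ovulated WT, 17.0, 9.08, 17.0 and 7.00 FPKM in GV CKO and 12.5, 13.1, 18.1 and 8.68 FPKM in GV WT oocytes.

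The other genes of homologous recombination, Xrcc3, Rad51c and Xrcc2, were not called higher. Xrcc3 had 2.76, 5.07 and 2.29 CPM in ovulated CKO, 0.956, 1.46 and 1.69 CPM in ovulated WT, 31.7, 32.5, 31.2 and 37.4 CPM in GV CKO and 81.0, 46.9, 34.4 and 47.8 CPM in GV WT oocytes. Every ovulated library lay far below every GV library, with a log2 fold change of -3.29 in CKO and -5.26 in WT oocytes (edgeR adjusted p = 5.29e-06 and 3.08e-07). Rad51c, which binds XRCC3 in a complex, had 35.1, 36.6 and 19.2 CPM in ovulated CKO, 23.3, 16.4 and 12.7 CPM in ovulated WT, 40.4, 37.1, 44.3 and 37.5 CPM in GV CKO and 49.7, 46.3, 44.5 and 47.8 CPM in GV WT oocytes. Every ovulated library lay below every GV library on the CPM scale. It fell in WT oocytes, where its log2 fold change was -1.43 (edgeR adjusted p = 0.000225), while its change of -0.39 in CKO oocytes was not called. Xrcc2 had changes of -0.26 in CKO and 0.10 in WT oocytes, which were not called.

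Of the 4 Fanconi anaemia genes 2 rose in both genotypes. Fancm, the DNA translocase that anchors the core complex on DNA, had 57.4, 58.9 and 69.3 CPM in ovulated CKO, 65.8, 61.6 and 45.7 CPM in ovulated WT, 21.6, 15.5, 11.3 and 6.85 CPM in GV CKO and 9.11, 14.5, 16.5 and 6.38 CPM in GV WT oocytes. Its ovulated libraries lay above all GV libraries, with a log2 fold change of 2.16 in CKO and 2.31 in WT oocytes (edgeR adjusted p = 0.000122 and 4.44e-05). Fancd2, which is ubiquitinated at crosslinks, rose by 1.41 in CKO and 1.49 in WT oocytes on the log2 scale and had the highest FPKM of this group, 14.4, 18.3 and 18.1 FPKM in ovulated CKO, 17.5, 12.6 and 11.2 FPKM in ovulated WT, 6.33, 3.19, 5.35 and 1.92 FPKM in GV CKO and 3.55, 4.28, 5.92 and 1.85 FPKM in GV WT oocytes. Fanci, the partner of FANCD2, and Fanca, a core complex subunit, were not called in either genotype, with log2 changes between -0.51 and 0.37.

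In non-homologous end joining the genes of both Ku subunits fell and the ligase gene rose. Xrcc5, which codes for Ku80, had 43.7, 23.6 and 22.0 CPM in ovulated CKO, 28.8, 37.9 and 39.8 CPM in ovulated WT, 149, 228, 183 and 213 CPM in GV CKO and 168, 181, 185 and 212 CPM in GV WT oocytes. Xrcc6, which codes for Ku70, had 14.9, 12.1 and 7.88 CPM in ovulated CKO, 11.5, 14.3 and 19.8 CPM in ovulated WT, 75.7, 80.1, 83.9 and 101.3 CPM in GV CKO and 106, 96.9, 78.5 and 103 CPM in GV WT oocytes. For both genes every ovulated library lay below every GV library. The log2 fold change of Xrcc5 was -2.70 in CKO and -2.39 in WT oocytes (edgeR adjusted p = 4.27e-06 and 3.84e-06), and that of Xrcc6 was -2.87 in CKO and -2.66 in WT oocytes (adjusted p = 3.22e-06 and 1.73e-06). Lig4, the ligase that seals the break, rose by 1.81 in CKO and 1.92 in WT oocytes, and its scaffold Xrcc4 had a log2 change of 0.47 in CKO (not called) and 0.72 in WT oocytes (adjusted p = 0.0429 in edgeR, a call that ended in 7 of 15 alternatives). The difference between both changes of Xrcc4 was -0.26 (edgeR adjusted p = 0.925). Per length, Xrcc5 averaged 15.8 ± 6.62 FPKM in ovulated CKO (SD, n = 3), 18 ± 4.81 FPKM in ovulated WT (SD, n = 3), 67.8 ± 11.5 FPKM in GV CKO (SD, n = 4) and 74.7 ± 11.6 FPKM in GV WT oocytes (SD, n = 4), and Lig4 averaged 21.2 ± 2.07 FPKM in ovulated CKO (SD, n = 3), 20.1 ± 9.78 FPKM in ovulated WT (SD, n = 3), 4.05 ± 1.41 FPKM in GV CKO (SD, n = 4) and 4.05 ± 0.856 FPKM in GV WT oocytes (SD, n = 4).

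**Figure D2:**
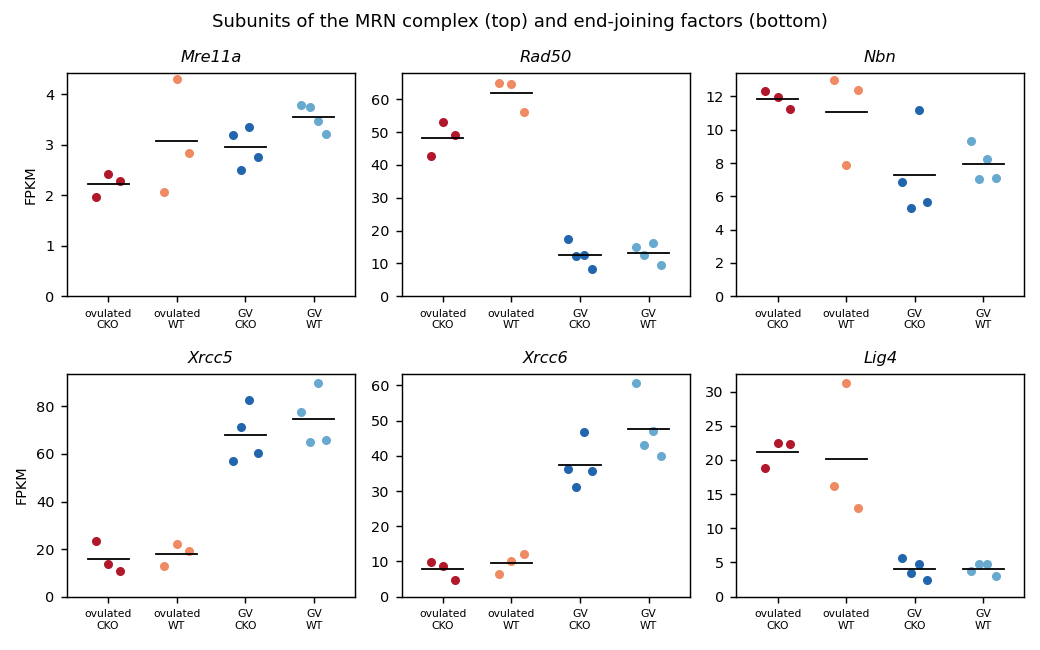
FPKM (y axis) of the MRN subunits Mre11a, Rad50 and Nbn and of the end-joining genes Xrcc5, Xrcc6 and Lig4 in each of 14 libraries (points), with the group mean as a line. Rad50 and Lig4 lay higher in all ovulated libraries, whereas Xrcc5 and Xrcc6 lay lower.

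The promoters of the Ku genes are given as the sequences of a pair of genes that fell in both genotypes. Use of the motifs and transcription from these promoters were not tested. The windows run from 250 bases before to 50 bases after the annotated start, come from RefSeq on GRCm38.p6 and lie on the plus strand at chr1:72307171-72307470 (Xrcc5) and chr15:82016119-82016418 (Xrcc6). Capitals mark the motifs searched on both strands. The NF-Y motif was CCAAT and the Sp1 motif was GGGCGG. The E2F motif was TTTGGCGC, the E-box was CACGTG and the TATA box was TATAAA. No motif match overlapped another in these windows.
Xrcc5: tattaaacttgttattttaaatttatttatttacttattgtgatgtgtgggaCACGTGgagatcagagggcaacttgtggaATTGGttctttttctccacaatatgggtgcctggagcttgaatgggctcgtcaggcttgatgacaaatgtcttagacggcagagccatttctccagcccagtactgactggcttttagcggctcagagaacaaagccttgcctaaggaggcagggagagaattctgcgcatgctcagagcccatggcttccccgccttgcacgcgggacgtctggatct
Xrcc6: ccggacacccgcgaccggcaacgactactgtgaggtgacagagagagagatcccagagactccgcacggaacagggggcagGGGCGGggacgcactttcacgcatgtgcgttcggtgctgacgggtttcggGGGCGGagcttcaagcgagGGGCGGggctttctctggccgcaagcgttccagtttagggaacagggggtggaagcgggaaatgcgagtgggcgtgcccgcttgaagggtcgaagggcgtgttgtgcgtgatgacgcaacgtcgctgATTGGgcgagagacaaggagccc
The Xrcc5 window, with 48.0% G and C, held 1 E-box and 1 CCAAT read on the other strand as ATTGG. The Xrcc6 window, with 64.3% G and C, held 3 GGGCGG and 1 CCAAT, also as ATTGG. Over the 36 windows found for 32 of the member genes, 66.7% held GGGCGG and 52.8% held CCAAT, against 35.7% and 37.4% of all 32851 windows of the same length. Those 32851 windows were not limited to genes tested in these oocytes. CACGTG was in 13.9% of the members' windows and 7.15% of all, TATAAA in 5.56% and 13.6%, and TTTGGCGC in 0% and 0.514%.

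In base excision and single-strand break repair, Apex1, the endonuclease that cuts at abasic sites, had 25.1, 10.7 and 7.47 CPM in ovulated CKO, 5.81, 7.70 and 10.2 CPM in ovulated WT, 61.9, 73.8, 72.3 and 90.1 CPM in GV CKO and 61.6, 61.0, 50.1 and 61.2 CPM in GV WT oocytes. Every ovulated library lay below every GV library, with a log2 fold change of -2.37 in CKO and -2.89 in WT oocytes (edgeR adjusted p = 5.55e-05 and 7.65e-06), and Apex1 had the highest mean FPKM of this group, 16.8 ± 11.0 FPKM in ovulated CKO (SD, n = 3), 8.61 ± 2.66 FPKM in ovulated WT (SD, n = 3), 57.1 ± 9.50 FPKM in GV CKO (SD, n = 4) and 51.2 ± 8.85 FPKM in GV WT oocytes (SD, n = 4). Ung, which removes uracil from DNA, was called higher in CKO oocytes only (0.80, edgeR adjusted p = 0.0393), with 0.00 in WT oocytes, and the difference between these changes was 0.80 (adjusted p = 0.621). Without library 2 of ovulated CKO oocytes its change in CKO oocytes was 0.36 (adjusted p = 0.353 in edgeR). Xrcc1, the scaffold of single-strand break repair, fell in WT oocytes by 1.51 on the log2 scale (edgeR adjusted p = 0.0173), with -1.16 in CKO oocytes, and the call ended in 4 of 15 alternatives. The difference between both changes of Xrcc1 was 0.35 (edgeR adjusted p = 0.94). Lig3, the ligase bound to XRCC1, Parp1, the break sensor that makes poly(ADP-ribose), and Ogg1, which removes oxidised guanine, were not called in either genotype. Their log2 changes were 0.25 in CKO and 0.17 in WT oocytes for Lig3, 0.33 in CKO and 0.05 in WT oocytes for Parp1, and -0.05 in CKO and 0.37 in WT oocytes for Ogg1.

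In mismatch and nucleotide excision repair, Ercc1, a subunit of the nuclease that cuts 5' of bulky lesions, had 1.89, 0.548 and 0.639 CPM in ovulated CKO, 0.425, 0.263 and 1.15 CPM in ovulated WT, 15.0, 11.7, 10.9 and 8.23 CPM in GV CKO and 13.8, 14.8, 11.8 and 12.2 CPM in GV WT oocytes. No ovulated library reached the lowest GV library, and the log2 fold change was -3.48 in CKO and -4.43 in WT oocytes (edgeR adjusted p = 4.41e-05 and 5.24e-06). Msh6, whose product recognises mismatched bases, rose by 1.66 in CKO and 1.74 in WT oocytes and had the highest FPKM of this group, 60.3, 68.1 and 70.5 FPKM in ovulated CKO, 65.6, 86.9 and 56.1 FPKM in ovulated WT, 20.8, 11.2, 15.6 and 9.19 FPKM in GV CKO and 15.7, 16.6, 22.4 and 11.7 FPKM in GV WT oocytes. Mlh3, known for its role in meiotic crossovers, was the least abundant member, with a mean of 0.224 FPKM. It fell by 1.63 in CKO and by 1.49 in WT oocytes on the log2 scale (edgeR adjusted p = 0.0297 and 0.0397), and these calls ended in 9 of 15 alternatives in CKO and 7 of 15 in WT oocytes. Without library 3 of ovulated CKO oocytes the change of Mlh3 in CKO oocytes was -1.36 (edgeR adjusted p = 0.103). Xpa, which verifies the damaged strand, rose in WT oocytes by 0.96 (adjusted p = 0.0229 in edgeR), with 0.41 in CKO oocytes, which was not called, and the difference between these changes was -0.55 (edgeR adjusted p = 0.818).

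**Figure D3:**
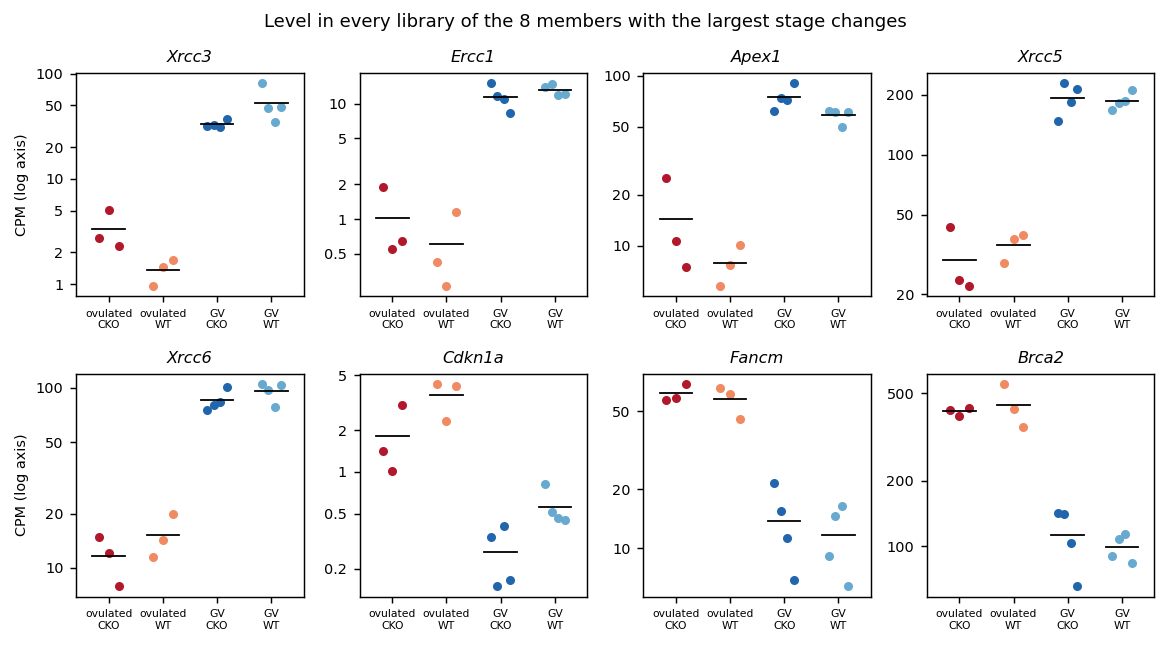
CPM (y axis, log scale) of the 8 members with the largest called stage changes in each of the 14 libraries (points; the line is the group mean). Xrcc3, Ercc1, Apex1, Xrcc5 and Xrcc6 lay lower in every ovulated library than in any GV library, and Cdkn1a, Fancm and Brca2 lay higher.

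Over all 15 alternatives run for each stage comparison, 18 of the 23 calls in CKO oocytes and 20 of the 27 calls in WT oocytes held in every alternative. Those that did not were Trp53, Chek2, Mre11a, Ung and Mlh3 in CKO and Chek1, Chek2, Mre11a, Xrcc4, Xrcc1, Mlh3 and Xpa in WT oocytes. CPM did not overlap between stages for 24 members in CKO oocytes, 16 higher and 8 lower, where 58.6% of all genes tested did not overlap, 27.4% higher and 31.2% lower. In WT oocytes this held for 21 members, 13 higher and 8 lower, where 62.3% of all genes did not overlap, 27.3% higher and 35.1% lower. The median coefficient of variation of the members between replicates was 16.5% in ovulated CKO, 27.6% in ovulated WT, 22.9% in GV CKO and 19.3% in GV WT oocytes.

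The genotype comparison asks whether oocytes without Clpx differ in these mRNAs, and no member passed the test at either stage. In ovulated oocytes 0 of 38 members were called, where 0.0083% of the 12044 genes tested were, and the single call was Clpx. In GV oocytes 0 of 38 were called, where 0.0245% of 12265 genes were. At an unadjusted p under 0.05 there was 1 member in ovulated oocytes (7.76% of all genes) and 3 in GV oocytes (5.74% of all genes). DESeq2 and limma-voom also called 0 members at both stages. In simulated data the edgeR tests recovered 8% of 2-fold changes in ovulated and 45% in GV oocytes, so changes of this size could be missed. CPM did not overlap between genotypes for 2 members in ovulated oocytes, Xrcc3 higher and Rad50 lower in CKO, where 10.4% of all genes did not overlap, 5.45% higher and 4.91% lower. In GV oocytes it did not overlap for Cdkn1a and Rad51c, both lower in CKO, where 3.82% of all genes did not overlap, 1.42% higher and 2.4% lower. The median log2 fold change of the members was -0.08 in ovulated and 0.04 in GV oocytes, and that of all genes was 0.00 in ovulated and 0.02 in GV oocytes.

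The members with the smallest p-values did not pass. Xrcc3 had 2.76, 5.07 and 2.29 CPM in ovulated CKO against 0.956, 1.46 and 1.69 CPM in ovulated WT oocytes, a log2 difference of 1.28 ± 0.529 (SE, edgeR adjusted p = 0.615). In GV oocytes its difference was -0.67 ± 0.246 (SE, edgeR adjusted p = 0.834), with the GV values given above partly overlapping. The difference between both genotype effects was 1.96 ± 0.466 (SE, edgeR adjusted p = 0.28), the largest of the members, where 0.0076% of 13158 genes and 0 of 38 members were called and 2 members had an unadjusted p under 0.05 (9.16% of all genes). DESeq2 called it (1.94, adjusted p = 0.0343), and so did edgeR without library 3 of ovulated CKO oocytes (2.17, adjusted p = 0.0152), while the adjusted p was 0.174 to 0.681 in the other alternatives.

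Rad51c came next in the ovulated comparison, with a difference of 0.76 ± 0.349 (SE, edgeR adjusted p = 0.648), and in GV oocytes it was -0.25 (adjusted p = 0.841). The difference of its genotype effects was 1.03 ± 0.363 (SE, edgeR adjusted p = 0.381), which became 1.28 (adjusted p = 0.039 in edgeR) without library 3 of ovulated CKO oocytes. The products of Xrcc3 and Rad51c form a complex in the resolution step of recombination. In ovulated oocytes Apex1 differed by 0.83 (edgeR adjusted p = 0.706). In GV oocytes Ung differed by -0.65 (adjusted p = 0.834 in edgeR), with 31.3, 23.7, 20.5 and 30.6 CPM in CKO against 65.9, 30.1, 30.7 and 37.98 CPM in WT oocytes, and the groups overlapped. Cdkn1a differed by -1.06 (edgeR adjusted p = 0.834), on 3 to 11 counts in GV CKO and 9 to 25 counts in GV WT libraries. Rad50 was the other member that did not overlap in ovulated oocytes, with -0.46 (edgeR adjusted p = 0.712), and the difference of its genotype effects was -0.57 (adjusted p = 0.614 in edgeR).

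**Figure D4:**
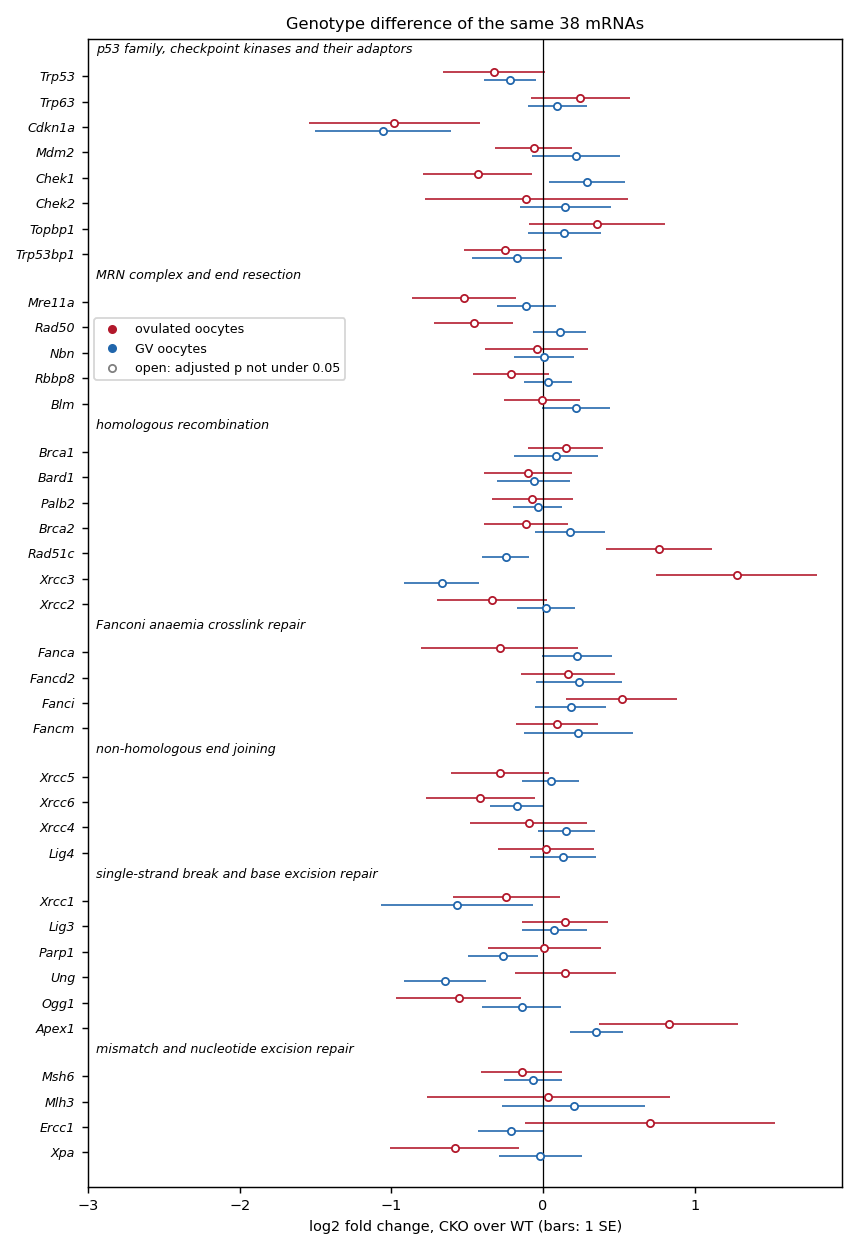
Log2 fold change between CKO and WT oocytes (x axis, bars of 1 SE) of the 38 members, with ovulated above GV for each gene; all points are open because none passed an edgeR adjusted p of 0.05. Xrcc3 and Rad51c lay to the right in ovulated and to the left in GV oocytes.

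The 3' ends of the 6 members with a poly(A) signal among the 8 with the largest called stage changes are shown because the length of the poly(A) tail is set there during oocyte maturation. Each line is a window of 30 bases from the GENCODE M21 transcript with the longest coding sequence on GRCm38, in the last exon, with the poly(A) signal (AATAAA or ATTAAA) and the cytoplasmic polyadenylation element (TTTTAT or TTTTAAT, a binding site of CPEB proteins) in capitals.
Xrcc3 (chr12:111803210-111803239, minus strand): tggagggctttagacccggaAATAAAactt
Ercc1 (chr7:19356480-19356509, plus strand): ccacctaggcccagtgtcacAATAAAgaat
Apex1 (chr14:50927100-50927129, plus strand): cctttagacaatccaagagaAATAAAaggc
Xrcc6 (chr15:82040046-82040075, plus strand): tcactgtgccttactctgtgAATAAAgagc
Cdkn1a (chr17:29100682-29100711, plus strand): cgaccccaaagctggtgctcAATAAAtact
Brca2 (chr5:150569701-150569730, plus strand): aactatcaTTTTATatacaaAATAAAcata
The windows were placed on the signal. Xrcc5 and Fancm, the other members of the 8, had neither AATAAA nor ATTAAA in the last 50 bases of the annotated transcript. The Brca2 window also held TTTTAT, 12 bases before the start of its signal. A poly(A) signal within the last 50 bases was found in 29 of 38 members (76.3%) and in 76% of the 12622 genes tested that had a transcript. A cytoplasmic polyadenylation element within the 100 bases before the signal was found in 4 of these 29 members (13.8%), Trp53, Brca2, Ogg1 and Xpa, and in 18.4% of the 9595 tested genes that had a signal. It was found in 2 of 11 members called higher in CKO and 3 of 12 called higher in WT oocytes that had a signal, and in 0 of 6 called lower in CKO and 0 of 7 called lower in WT oocytes. Use of these sites was not tested.

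The stage change was compared with transcript length. The counts and FPKM of a gene together imply the length used by the authors' estimate, and this could be computed for 33 members and 6970 genes. Across these 33 members Spearman's rho between log2 length and log2 stage change was 0.37 in CKO and 0.39 in WT oocytes, and across all 6970 genes it was 0.44 in CKO and 0.39 in WT oocytes. These are correlations across genes of the same libraries and not across replicates. The 12 members of 4 kb and more had a median log2 change of 1.24 in CKO and 1.28 in WT oocytes, and the 11 members under 2.5 kb had 0.14 in CKO and 0.18 in WT oocytes. All genes of these lengths had medians of 0.99 in CKO and 1.04 in WT oocytes for the long ones, and -0.49 in CKO and -0.46 in WT oocytes for the short ones. Among the members that fell, Apex1 and Ercc1 have annotated transcripts of 1239 and 1375 bases, and among those that rose Brca2 has 10724 and Fancm 7775 bases. Other members ran the other way, since Mre11a (3286 bases annotated and a mean of 5522 bases implied) and Mlh3 (4699 bases annotated) fell, while Cdkn1a (2080 bases) and Trp53 (1771 bases) rose in both genotypes and Xpa (1241 bases) rose in WT oocytes.

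The implied length itself differed between stages for a few members. It was called changed (limma on log2 length, adjusted p under 0.05 and a shift of at least 0.25) for 2 of 33 members in CKO oocytes, where 2.91% of 6970 genes were called, and for 4 of 33 in WT oocytes, where 3.95% were. Between genotypes it was called for 0 members in ovulated and in GV oocytes, where 0.129% and 0% of all genes were called. Mdm2 had implied lengths of 3149, 3226 and 3120 bases in ovulated CKO, 3059, 3686 and 3178 bases in ovulated WT, 5970, 6145, 5205 and 5994 bases in GV CKO, and 5149, 5831, 5400 and 5877 bases in GV WT oocytes. The stages did not overlap, with a log2 shift of -0.89 in CKO and -0.78 in WT oocytes (limma adjusted p = 4.02e-05 and 7.14e-05). The protein-coding Mdm2 transcripts with a complete end in GENCODE M21 have 3099 and 3145 bases, and every GV value lay above both. Whether the authors' estimate used these transcript models is not given in the sources used here. Implied and annotated lengths are not on the same scale. Apex1 had a mean of 1073 bases implied and 1239 annotated, and Rad50 had 4919 implied and 5153 annotated. Mre11a went the other way, with 5522 implied and 3286 annotated. The ovulated values of Mdm2, 3059 to 3686 bases, can therefore not be placed above or below 3099 and 3145 bases.

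The level of Mdm2 therefore depended on the scale. Its CPM was 249 ± 26.1 CPM in ovulated CKO (SD, n = 3), 258 ± 28.2 CPM in ovulated WT (SD, n = 3), 371 ± 111 CPM in GV CKO (SD, n = 4) and 319.9 ± 109.9 CPM in GV WT oocytes (SD, n = 4), and the difference was not called. Its FPKM was 97.6 ± 4.86 FPKM in ovulated CKO (SD, n = 3), 91.9 ± 5.70 FPKM in ovulated WT (SD, n = 3), 49.97 ± 3.88 FPKM in GV CKO (SD, n = 4) and 50.8 ± 5.04 FPKM in GV WT oocytes (SD, n = 4), which is higher in ovulated oocytes. FPKM divides by length and scales with the library total without TMM. Bard1 was longer in ovulated oocytes, by a log2 shift of 0.79 in CKO and 0.70 in WT oocytes (limma adjusted p = 0.0101 and 0.00824). Fanca had 3355, 5036 and 2635 bases in ovulated CKO, 1946, 1938 and 1729 bases in ovulated WT, 5507, 5021, 5035 and 4430 bases in GV CKO, and 4702, 5058, 4733 and 4218 bases in GV WT oocytes. Library 2 of ovulated CKO oocytes lay within the GV range. The log2 shift of Fanca was -0.51 in CKO oocytes, which was not called (limma adjusted p = 0.0608), and -1.34 in WT oocytes (adjusted p = 0.000561 in limma), and the difference between these shifts was 0.84 (limma adjusted p = 0.722). Between ovulated genotypes the shift of Fanca was 0.93 (limma adjusted p = 0.0785). Without library 3 of ovulated CKO oocytes it was 1.15 (limma adjusted p = 0.00378), and the difference between the stage shifts was 1.05 (limma adjusted p = 0.0434). Without library 2 of ovulated CKO oocytes the shift between stages in CKO oocytes was -0.76 (adjusted p = 0.00381 in limma). Trp63 had a shift of 0.19 in CKO oocytes (not called) and 0.28 in WT oocytes (limma adjusted p = 0.0161). The call of Trp63 in WT oocytes ended without library 4 of GV WT (0.22) and without library 2 of ovulated WT oocytes (0.24). Its implied lengths overlapped between stages in WT oocytes. The gene symbols of 241 of the 16417 shared gene IDs differed between the tables of the stages, and the annotation release of each table is not given in the sources used here, so other transcript models and other isoforms cannot be told apart here. Among 2726 genes with a nearly constant length within each table, which include 17 members, 2 moved by more than 0.1 on the log2 scale between the tables.

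**Figure D5:**
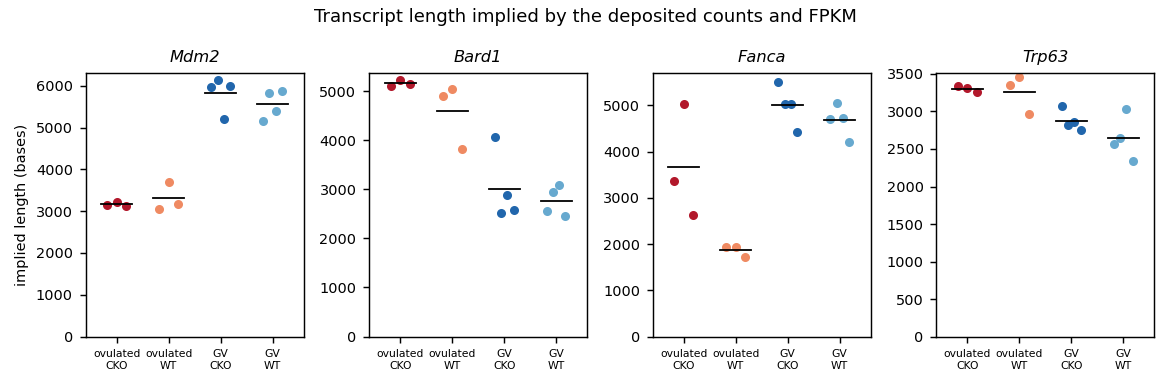
Transcript length implied by the deposited counts and FPKM (y axis, bases) for the 4 members called changed, in each of the 14 libraries (points; lines are group means). Mdm2 lay at 3059 to 3686 bases in ovulated and at 5149 to 6145 bases in GV libraries.

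Other genes of the same pathways, 103 in 7 lists, were counted in the same way. In CKO oocytes 29 of the 98 tested were higher and 30 lower in ovulated than in GV oocytes, and in WT oocytes 33 were higher and 29 lower. Over all genes 25.8% were higher and 29.9% lower in CKO, and 29.7% were higher and 34% lower in WT oocytes. The same 27 genes were higher and the same 27 lower in both genotypes. No gene of these lists was called between genotypes at either stage. Of 15 tested p53 and p63 targets the same 7 rose and the same 1 fell in both genotypes. Among the genes that rose was Sesn2, which codes for a stress-response regulator (log2 fold change 3.24 in CKO and 2.14 in WT oocytes, edgeR adjusted p = 0.00147 and 0.0116). Of 21 other genes of homologous recombination 3 rose and 10 fell in CKO, and 4 rose and 9 fell in WT oocytes. The nuclease gene Mus81 fell by 4.20 in CKO and by 5.46 in WT oocytes on the log2 scale, and Rpa2, a subunit of the single-strand binding protein RPA, fell by 3.31 in CKO and by 5.45 in WT oocytes.

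Of 6 other end-joining genes the same 1 rose and the same 3 fell in both genotypes, with Poll, which codes for a gap-filling polymerase, at -2.40 in CKO and -3.56 in WT oocytes. Of 17 other checkpoint genes 7 rose and 4 fell in CKO, and 10 rose and 4 fell in WT oocytes. Rad9a, a subunit of the 9-1-1 clamp, had the largest called change of this list and fell, while most called genes of the list rose. It was at -3.38 ± 0.878 (SE) in CKO and -5.05 ± 1.01 (SE) in WT oocytes. Of 9 other Fanconi anaemia genes 3 rose and 2 fell in CKO, and 2 rose and 3 fell in WT oocytes, with Fancl, the ligase for FANCD2, at -1.94 in CKO and -3.07 in WT oocytes. Of 14 other base excision repair genes 2 rose and 5 fell in CKO, and 3 rose and 4 fell in WT oocytes. Of 16 other mismatch and nucleotide excision repair genes the same 6 rose and the same 5 fell in both genotypes.

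Exons of 14 members overlap exons of a gene on the opposite strand in GENCODE M21, and the sources used here do not say whether counting used strand, so reads of these pairs cannot be told apart. Among the members with the largest changes these are Apex1 with 877 bases shared with Pip4p1, Xrcc6 with 344 bases shared with Desi1, Ercc1 with 106 bases shared with Cd3eap and Xrcc3 with 12 bases shared with Klc1. Trp53bp1 shares 2130 bases with Tubgcp4.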

How the data were processed

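RNA of 14 mouse oocyte libraries was amplified with SMART-Seq2, per the labels' protocols. The authors deposited estimated counts and FPKM per gene in separate tables for each stage. The build is mm10, per the submitters' processing notes, and the aligner, the counter, the annotation release and the use of strand are not given in the sources used here. Every value column was assigned to 1 sample, and 0 columns were left unused.

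The tables were joined by gene ID, and the estimated counts were rounded. Genes with low counts were removed (edgeR filterByExpr, minimum count 10), counts were scaled with TMM, and edgeR 4.0.16 in R 4.3.3 gave quasi-likelihood tests with Benjamini-Hochberg adjustment over all genes tested (threshold 0.05). Genotypes were compared within each table. Stages, and the difference of the CKO effect between stages, were tested in 1 fit of all 14 libraries, and levels across the tables rest on their joint scaling. Any batch of the separate tables and the stage cannot be told apart. Each library held 25086506 to 28471453 counts. The scripts were tested on simulated data, with changes set in genes of at least 10 CPM. Of 2-fold changes, 8% were recovered between ovulated genotypes, 45% between GV genotypes and 3% for the difference of the CKO effect. For 4-fold changes these shares were 83%, 98% and 57%. No replicate pair agreed within sampling noise (chi-square per degree of freedom of 40.5 or more in 18 pairs).

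Implied length is count over FPKM and library total, for genes with at least 50 counts and 0.5 FPKM, tested with limma 3.58.1. This test was added after seeing the data. Alternatives were DESeq2 1.42.0, its size factors, total counts, no filter, limma-voom, a replicate block, other sets of libraries and leaving out each library. The text gives per-library values for the 8 members with the largest called stage changes, the 3 smallest p-values per genotype comparison and the most abundant member of each role, and other members were described after their values were seen. The members and the lists were chosen with earlier results of these data known. Results for some genes of the pathway lists are not reported here.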

Additional observations from a re-analysis of the deposited data

Results flagged for a closer look

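In 4 of 76 groups of 4 libraries, 1 library stood apart from the other 3 by Dixon's test, and chance gives about 5% of groups. Cdkn1a had 0.822 CPM in library 1 of GV WT oocytes, where the others had 0.452 to 0.511 CPM. Blm had 20.7 CPM in library 4 of GV CKO oocytes, where the others had 34.8 to 36.0 CPM. Msh6 had 94.2 CPM in library 1 of GV CKO oocytes, where the others had 56.3 to 62.3 CPM. Apex1 had 50.1 CPM in library 3 of GV WT oocytes, where the others had 61.0 to 61.6 CPM.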

How the results depend on the processing

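Of 897 values under alternatives for 59 results of single members, 841 kept direction and call, 53 lost the call, 3 gained one and 0 changed sign. Members called between stages were 21 to 24 in CKO and 21 to 26 in WT oocytes when 1 library was left out. The count was 0 for both genotype comparisons in every such fit. For the difference of the CKO effect between stages it was 0 to 2, and it was 1 with DESeq2. With a replicate block, 22 members were called in CKO and 24 in WT oocytes and 0 in the other comparisons. Same-numbered libraries deviated with correlations of -0.25 to 0.33 in GV and -0.23 to 0.26 in ovulated oocytes. Libraries with different numbers had -0.37 to 0.35 in GV and -0.32 to 0.37 in ovulated oocytes. So few pairs cannot decide whether the numbers pair the libraries. Among all genes, DESeq2 called 131 between ovulated genotypes (edgeR 1), 41 between GV genotypes (edgeR 3) and 64 for the stage difference (edgeR 1). The fit of all 14 libraries called 64 between ovulated genotypes. Without library 3 of ovulated CKO oocytes 201 genes were called between ovulated genotypes and 498 for the stage difference. Without library 3 of ovulated WT oocytes these were 3 and 2, and without library 1 or 4 of GV CKO oocytes 6 genes were called between GV genotypes. limma-voom and the block called 0 genes for the stage difference. With a minimum of 200 counts, 25 members could be tested for implied length, against 33 with the minimum of 50. Of these 25, it was called changed for 1 in CKO and 2 in WT oocytes. With the minimum of 50 and 1 library left out, it was called for 2 to 3 members in CKO and 3 to 5 in WT oocytes. Between ovulated genotypes and for the stage difference it was then called for 0 to 1 members, and between GV genotypes for 0. The cause was not tested. The GV values of Cdkn1a rest on 3 to 25 counts.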
